A study of Canis lupus familiaris with 6 samples.

Results

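REPS2 and 8 other genes of the route from Ras to the Ral GTPases (REPS1, RALA, RALB, RALGDS, RGL1, RGL2, EPS15 and EPN1) were described in canine epithelial cells that carry an oncogenic Ras. Members were the probes of the array whose gene name is 1 of these 9 genes, with all probes of a gene taken. By the array's own annotation 8 of the 9 genes have a probe, 13 probes in all. REPS2 has none under that name, and 1 further probe carries it through a match of its sequence to a supplementary list of the study that pairs array sequences with gene names, which makes 14 probes of the 43603 on the array. That list holds genes the study picked as changed in another set of arrays, of RasV12 cells that also carry the β-catenin mutant ΔN, in mixed culture against culture alone. The name therefore exists here only for a probe picked there. The 9 genes were chosen by the difference in signal between mixed culture and culture alone at REPS2 and by their known place beside it, so that difference is given for them as a description with its error, and no significance is read from it.

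RasV12 cells are MDCK-pTR GFP-RasV12 cells, a derivative of the Madin-Darby canine kidney (MDCK) epithelial line that makes GFP-tagged RasV12, a constitutively active Ras, once tetracycline is added. All 6 samples are such cells after 24 h of tetracycline, collected by their GFP in a flow sorter, with 3 samples from RasV12 cells cultured alone and 3 from RasV12 cells in mixed culture with normal MDCK cells. The comparison asks how the transformed cells change when normal neighbours surround them. Whether the cells stem from 1 clone is not said in the labels, which also do not say whether the replicates were separate cultures, so the errors measure only the spread between these samples. The mixing ratio is 10 MDCK cells to 1 RasV12 cell in the methods and in the labels of mixed replicates 1 and 3, but 100 to 1 in the label of mixed replicate 2. A β-catenin mutant appears in the labels' note on RNA extraction, but not in the sample titles or in the methods for these cells.

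RalA and RalB are small GTPases of the Ras family. Active Ras binds the exchange factors RALGDS, RGL1 and RGL2, which load Ral with GTP, and Ral then engages effectors such as the exocyst, the complex that tethers secretory vesicles to the plasma membrane. REPS1 and REPS2 bind, through their EH domains, endocytic adaptors such as EPS15 and the epsin EPN1, and so connect Ral to the uptake of growth factor receptors through clathrin-coated pits. Epithelial cells use these routes to deliver and retrieve proteins of the lateral membrane.

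The signal of each probe was placed on the log2 scale relative to the 75th percentile of its array, so that 0 means a signal at that percentile. The percentile itself ranged from 592 to 700 intensity units over the 6 arrays. Between 60.8% and 66.4% of the probes on an array were well above background by the scanner software's own call. The arrays of culture alone were on one slide and those of mixed culture on another, so that slide and culture cannot be told apart. Of the epithelial markers, KRT18 and EPCAM gave most of the summed signal and CDH16 and PAX8 read below the 75th percentile on all 6 arrays. Of these markers limma called 0 of the 7 tested at their brightest probe, where 3 had an unadjusted p under 0.05 and a second OCLN probe was called higher by 0.41, with summed signals of 45336% to 54041% of the 75th percentile alone and 48671% to 54620% mixed. Among markers of other cell types, 10 of 17 passed the filter on dim signals and limma called 0 of them, 2 of the fibroblast markers having an unadjusted p under 0.05. Over the array limma called 11.7% of the 9740 genes with a symbol. Against that share, counts of 0 in lists this short say little about either set of markers. The leukocyte marker PTPRC, the fibroblast marker PDGFRA and the endothelial markers CDH5 and TEK were well above background on 0 arrays, and the summed fibroblast signal was 117% to 123% alone and 130% to 140% mixed. The summed leukocyte signal was 40.0% to 47.8% alone and 46.6% to 48.6% mixed, and the endothelial one 502% to 729% alone and 547% to 737% mixed. By the methods the cultures held only cells of the MDCK line, and the source of these marker signals was not tested. RNA came from whole sorted populations, in which fewer cells making a transcript and less of that transcript in each cell cannot be told apart.

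The sequence that carries the name REPS2 is shown first, because the largest difference among the members rests on this 1 probe. Its first 30 of 60 bases, in the direction of the printed probe, are as follows.

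REPS2 probe: ggttaaaaatctccaactttggaaaatgta

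The array places this probe on the plus strand at chrX:13312515-13312575 of the dog build canFam3, a span of 61 bases for a probe of 60. The array annotates it only as the expressed sequence cluster TC60366. All 3 forward reading frames of the probe hold a stop codon, which was the case for no other of the 14 probes. It shared no run of 15 bases, on either strand, with any of the other 43602 probes. In the RefSeq gene table of another dog assembly, UU_Cfam_GSD_1.0, REPS2 follows SYAP1, TXLNG and LOC119878057 on the X chromosome, precedes NHS, and overlaps a long non-coding RNA, LOC111094684. On canFam3 the probe likewise lies beyond the probes of SYAP1, TXLNG and RBBP7. Whether it falls in an exon of REPS2, in an intron or in the non-coding RNA was not analysed here.

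For RALA and RALB, the probes that overlap in the homologous part of the messages are shown, because they let the 2 paralogs be told apart by sequence. Capitals mark bases that are identical in an ungapped local alignment of 35 bases.

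RALA probe 1: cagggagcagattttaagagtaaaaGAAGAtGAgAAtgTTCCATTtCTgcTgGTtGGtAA

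RALB probe 2: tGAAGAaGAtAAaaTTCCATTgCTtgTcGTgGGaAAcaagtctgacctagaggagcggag

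Of the 35 aligned bases 25 were identical, or 71.4%. RALA probe 1 maps to the minus strand at chr18:10031159-10036754, a span of 5596 bases for 60 bases of probe, so that it joins exons on either side of an intron. RALB probe 2 maps to the minus strand at chr19:29827648-29827707 in a single block. The second RALA probe, at chr18:10022500-10022559, and RALB probe 1, at chr19:29820098-29820157, lie further 3′ along the same strands.

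REPS2 was higher in mixed culture than in culture alone. Its log2 signal was -4.23, -3.28 and -3.28 in replicates 1 to 3 of culture alone and -1.90, 0.63 and 0.54 in replicates 1 to 3 of mixed culture. The groups did not overlap, and replicate 1 was the lowest sample of each group. The scanner software called the probe well above background on each of the 6 arrays. In units of intensity it gave 33.0, 72.2 and 66.4 alone against 169, 1007 and 861 mixed. The means differed by 3.35 on the log2 scale (SE 0.69, 95% interval 1.70 to 5.01, n = 3 against 3), which is 10.2-fold. By replicate number the differences were 2.33, 3.91 and 3.82. This was the 12th largest difference, by size, of the 26535 probes tested.

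The spread between the replicates of REPS2 was wide, with an SD of 0.55 alone and 1.43 mixed, and exceeded that of 99.9% of the tested probes. Without mixed replicate 1 the difference was 4.18, and without mixed replicate 2, the sample labelled 100 to 1, it was 2.92. Scaling to the spike-in controls gave 3.19, and background correction by normexp gave 2.43.

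**Figure D1:**
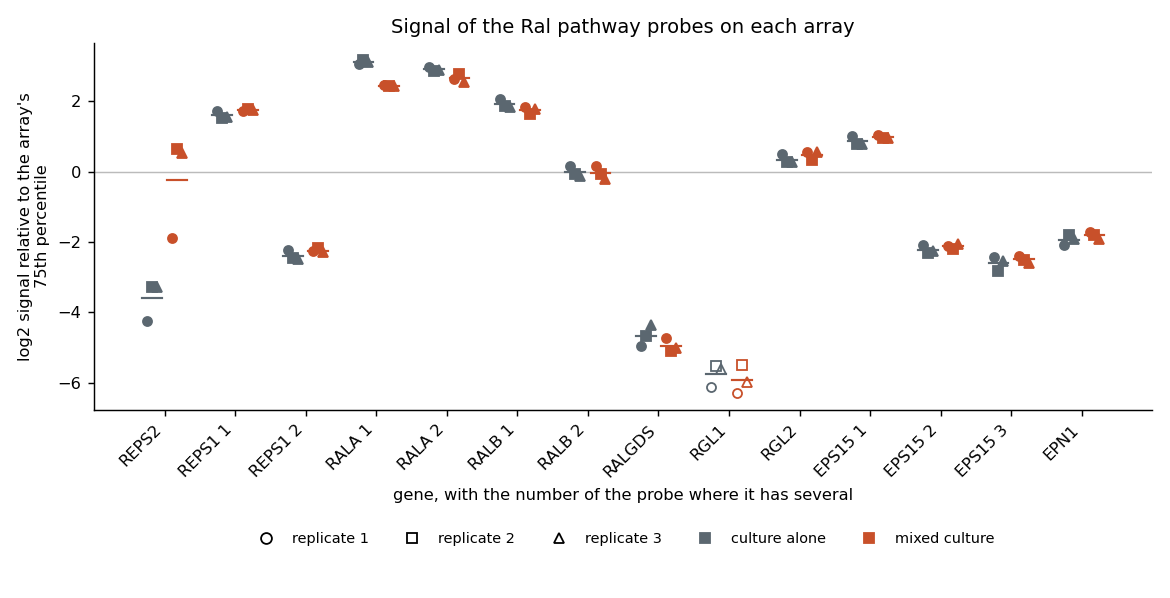
Log2 signal of each of the 14 member probes relative to the 75th percentile of its array (vertical axis), for culture alone in grey and mixed culture in orange, with the symbol giving the replicate number and the horizontal line the mean of 3 arrays. Open symbols are RGL1, which was not tested. REPS2 and both RALA probes separate the cultures, and replicate 1 of REPS2 is the lowest in both groups.

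REPS1, the paralog of REPS2, differed little between the cultures. Its probe 1, at chr1:31141719-31141778, read 1.73, 1.51 and 1.55 alone and 1.71, 1.78 and 1.74 mixed. The difference of the means was 0.15 (SE 0.08, 95% interval -0.05 to 0.35). Probe 2, at chr1:31141344-31141403, gave a difference of 0.14 (95% interval -0.08 to 0.36), and the groups overlapped at both probes. The difference between the 2 REPS1 probes within an array changed by 0.005 between the cultures.

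RALA, the GTPase itself, was lower in mixed culture at probe 1. That probe read 3.07, 3.17 and 3.12 alone and 2.45, 2.45 and 2.43 mixed. Every mixed value lay below every value from culture alone, and the replicates lay close together, with an SD of 0.05 alone and 0.01 mixed. The difference of the means was -0.67 (SE 0.07, 95% interval -0.83 to -0.51), or 1.60-fold lower, and only 2.56% of the tested probes had a smaller spread. RALA probe 2 read 2.97, 2.86 and 2.89 alone and 2.62, 2.78 and 2.54 mixed. Its groups did not overlap either, with a smaller difference of -0.26 (SE 0.09, 95% interval -0.47 to -0.05). The signal of probe 1 minus that of probe 2 was 0.21 on average alone (SD 0.10) and -0.20 mixed (SD 0.12), positive on all 3 arrays of culture alone and negative on all 3 of mixed culture. The 2 RALA probes therefore did not change by the same amount.

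The difference at RALA probe 1 lay between -0.84 and -0.64 in the 13 alternative fits, the lowest with scaling to the spike-in controls and the highest with quantile normalization.

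RALB, which shares most of its effectors with RALA, showed smaller values. Its probe 1 read 2.06, 1.85 and 1.85 alone and 1.84, 1.63 and 1.78 mixed, which left the groups just apart, with a difference of -0.17 (SE 0.10, 95% interval -0.40 to 0.06). Probe 2, the one aligned with RALA above, gave -0.03 (SE 0.12, 95% interval -0.31 to 0.26), and its groups overlapped.

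The exchange factors gave little signal or little difference. RALGDS, named for its activity as the Ral guanine nucleotide dissociation stimulator, has 1 probe, which maps across an intron at chr9:51324474-51324824. It read -4.95, -4.67 and -4.36 alone and -4.71, -5.11 and -5.00 mixed, only 18.5 to 31.5 units of intensity, and the groups overlapped. Its difference was -0.28 (95% interval -0.70 to 0.13). RGL1, at chr7:17234138-17234197, was well above background on 2 arrays of culture alone and 1 of mixed culture, with log2 values from -6.29 to -5.48 over the 6 arrays, and was not tested. RGL2, at chr12:2732234-2732293, read 0.49, 0.27 and 0.27 alone and 0.56, 0.32 and 0.55 mixed. Its difference was 0.13 (SE 0.11, 95% interval -0.12 to 0.39).

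The endocytic adaptors that bind the REPS proteins also stayed close to 0. EPS15, a scaffold of clathrin-coated pits, has 3 probes on chromosome 15, at chr15:9893476-9893535, across an intron at chr15:9862578-9863523, and at chr15:9848378-9848437. They differed by 0.12, 0.09 and 0.11, with intervals that together run from -0.17 to 0.38. EPS15 probe 1 read 1.02, 0.79 and 0.78 alone and 1.03, 0.95 and 0.96 mixed. EPN1, which bends membrane and brings ubiquitinated cargo to the pit, differed by 0.13 (95% interval -0.12 to 0.37) at chr1:102061050-102061109. It read -2.08, -1.79 and -1.93 alone and -1.70, -1.80 and -1.92 mixed. None of these 4 probes separated the groups.

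**Figure D2:**
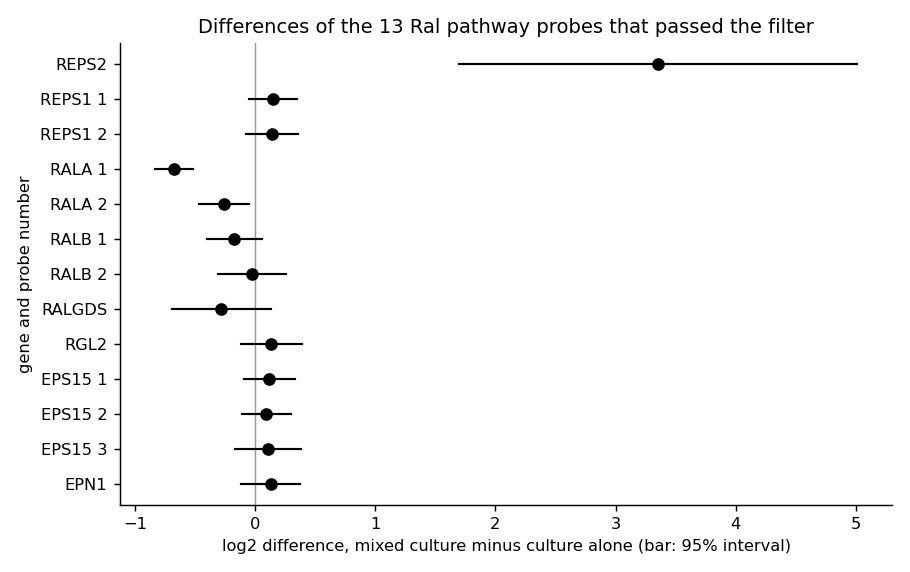
Difference of the mean log2 signal, mixed culture minus culture alone, for the 13 member probes that passed the filter (horizontal axis), with its 95% interval from the limma fit. REPS2 lies at 3.35 and RALA probe 1 at -0.67, and the other 11 lie between -0.28 and 0.15.

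Among the 13 member probes that passed the filter, REPS2 and RALA probe 1 were past the threshold of limma's fit over all probes (Benjamini-Hochberg adjustment, 0.05), the first higher and the second lower, where 11.2% of all tested probes were called, 5.50% higher and 5.72% lower. Since the members were chosen on this contrast, the count of 2 is a description, and nothing is read from it against that share. The groups did not overlap at 4 of the 13 probes (REPS2, both RALA probes and RALB probe 1), where this held for 37.2% of all tested probes. The mean was higher in mixed culture at 8 member probes and lower at 5. The median difference of the 13 was 0.11, against -0.004 over all tested probes, and its median size was 0.14 against 0.17. Scaling to the spike-in controls moved the median of all probes to -0.16 and with it turned the small positive differences of REPS1, RGL2, EPS15 and EPN1 to between -0.07 and -0.01. Relative to that median they were unchanged in direction.

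The named genes with the pattern most like REPS2 over the 6 arrays, those with a gene symbol, were found by the root mean square difference of log2 values, after subtraction of each probe's own mean, among the 25529 other probes well above background on all arrays. These were ADAMTS1, a secreted metalloprotease (0.31), IDO1, an enzyme of tryptophan breakdown (0.42), SAA1, an acute phase protein (0.63), HLA-DRB1, named after its human counterpart of the class II antigen-presenting molecules (0.69), and SLPI, a secreted inhibitor of proteases (0.73). Their best probes ranked 2, 4, 5, 6 and 8 among all probes compared. Ranks 1 and 3 went to probes without a symbol, CF406148 (0.19) and TC54154 (0.32), and rank 7 to a second HLA-DRB1 probe. All were chosen for this likeness, and their values are a description. ADAMTS1 read -4.92, -4.53 and -4.41 alone and -2.28, -0.54 and -0.33 mixed. IDO1 read -4.38, -2.74 and -2.44 alone and -1.16, 1.53 and 1.77 mixed. In all 5 genes mixed replicate 1 was the lowest of the mixed samples, by 1.74 log2 units or more, as it was for REPS2. Culture alone replicate 1 was the lowest of its group for ADAMTS1, IDO1, HLA-DRB1 and SLPI and not for SAA1.

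**Figure D3:**
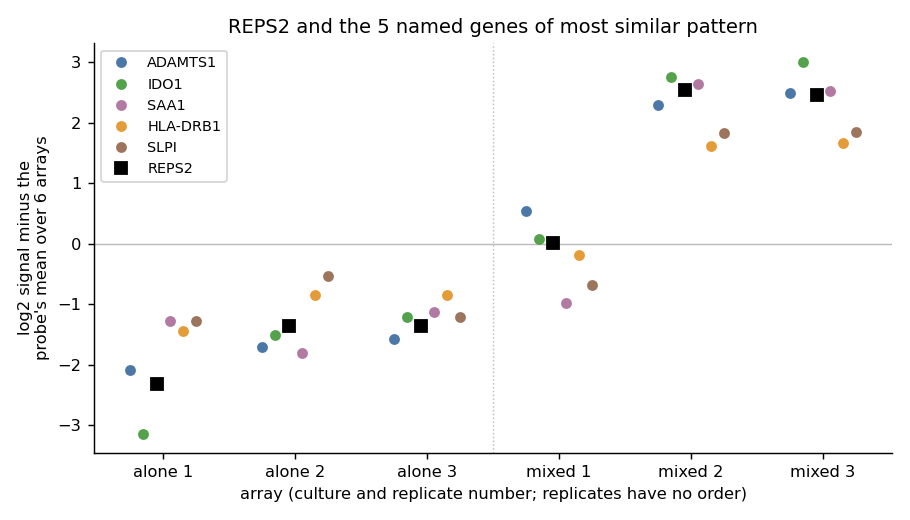
Log2 signal of REPS2 (black squares) and the 5 named genes of most similar pattern (coloured points), each minus its own mean over the 6 arrays (vertical axis), for every array (horizontal axis). In every one of these genes mixed replicate 1 lies between the samples of culture alone and the other mixed samples, or close to culture alone.

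The tested neighbours of the REPS2 probe on the X chromosome did not share its difference in size. All of them lay 324 to 414 kb from it, and no closer probe was tested. Within 500 kb on either side the array has 14 other probes, of which 7 were tested and 1 was called, against 11.2% over the array. The called probe, cluster TC60987, lies 377 kb away on the other strand and was 0.78 higher in mixed culture (SE 0.16, limma adjusted p = 0.032). The 7 differences ran from -0.001 to 0.78, with SYAP1 at 0.10, RBBP7 at 0.37 and TXLNG at 0.41, none of these 3 called. The nearest probe, 0.44 kb away on the opposite strand, and the next, 23.9 kb away on the same strand, were well above background on 0 arrays. Their values lay between -8.12 and -6.57 over the 6 arrays. Whether either of them lies in REPS2 was not analysed here, and neither gave a signal to set beside that of the REPS2 probe.

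**Figure D4:**
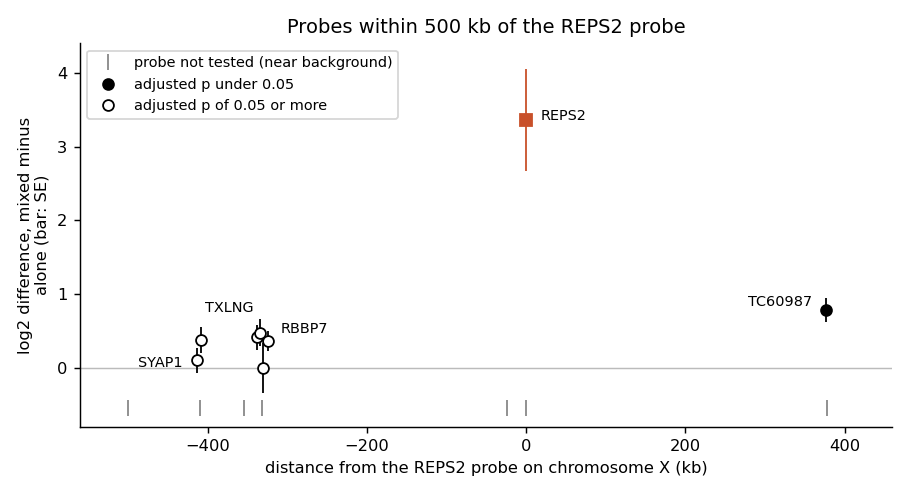
Difference of the mean log2 signal, mixed culture minus culture alone (vertical axis, bars are SE), against the distance from the REPS2 probe in kb. REPS2 stands at 3.35, the 7 tested neighbours lie between -0.001 and 0.78, and ticks mark the 7 probes too dim to be tested.

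Other genes around the Ral GTPases were taken from 5 lists with 56 genes. Of these, YBX3 and BIN1 have no probe under their name, 5 did not pass the filter on dim signals (RALGPS1, RALGAPA2, DNM1, AMPH and STON2), and 49 were tested at the probe with the highest mean. Of the 49, 2 rose in mixed culture, 4 fell and 43 were not called. That is 12.2% of the list, where 11.7% of the 9740 genes with a symbol were called, 5.27% higher and 6.47% lower. The median difference of the 49 was -0.05. The share of called genes around Ral thus lay near that of the array.

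Among the Ral effectors 1 of 13 tested genes rose and 1 fell. Both belong to the exocyst and are paralogs of 1 subunit. EXOC6 read 0.01, -0.21 and -0.16 alone and 0.59, 0.63 and 0.64 mixed, a rise of 0.74 (SE 0.08, limma adjusted p = 0.013). EXOC6B read 1.65, 2.02 and 2.05 alone and 1.22, 1.16 and 1.20 mixed and fell by 0.71 (SE 0.12, limma adjusted p = 0.022). For both, the groups did not overlap. Other probes of the pair were not called, at 0.15 and 0.68 for EXOC6 and -0.49 for EXOC6B. The remaining subunits, EXOC1 to EXOC5, EXOC7 and EXOC8, lay between -0.24 and 0.24 at their brightest probe and were not called. Their other tested probes ran from -0.25 (EXOC1) to 0.33 (EXOC3) and were not called either. Of the 13 Ral effectors, 7 had an unadjusted p under 0.05 in limma, 3 of them higher in mixed culture.

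Among the Ras-family GTPases 2 of 8 fell and none rose, also at an unadjusted p under 0.05, which 3 passed. HRAS read 8.19, 8.25 and 8.29 alone and 7.95, 7.56 and 7.67 mixed and fell by 0.51 (SE 0.11, limma adjusted p = 0.038, and 0.055 with the replicate number as a block). Whether its probe also reads the RasV12 transgene is not given in the sources used here, so this value is no check of the transgene. RAP1B, which acts in integrin and cadherin adhesion, read 2.90, 2.73 and 2.63 alone and 2.36, 2.36 and 2.27 mixed and fell by 0.42 (SE 0.09, limma adjusted p = 0.035). NRAS at 0.22 was not called.

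Among the 24 clathrin endocytosis partners tested, 1 rose and 1 fell by limma's call, and 5 had an unadjusted p under 0.05, 1 of them higher. ITSN2, a scaffold that binds EPS15 and epsins, rose by 0.36 (SE 0.07, limma adjusted p = 0.026), with its other probes at 0.27 and 0.32. STAM, which sorts ubiquitinated receptors on endosomes, fell by 0.43 (SE 0.10, limma adjusted p = 0.046, and 0.078 with the replicate number as a block). SNAP91, a clathrin assembly protein known from synapses, was not called at its brightest probe (-0.61, SE 0.18, limma adjusted p = 0.071), while its 2 other probes were called lower, at -0.70 and -0.66. For CLTC, the clathrin heavy chain, the brightest probe gave -0.09 and 1 other probe was called lower at -0.50. The remaining list members, 2 tested exchange factors and 2 tested genes of the RalGAP complex, lay between -0.17 and 0.22 at their brightest probe. They were not called by limma, with 2 at an unadjusted p under 0.05 (RGL3 and RALGAPA1). Other probes of the RalGAP genes ran from -0.03 (RALGAPA1) to 0.26 (RALGAPB) and were not called.

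**Figure D5:**
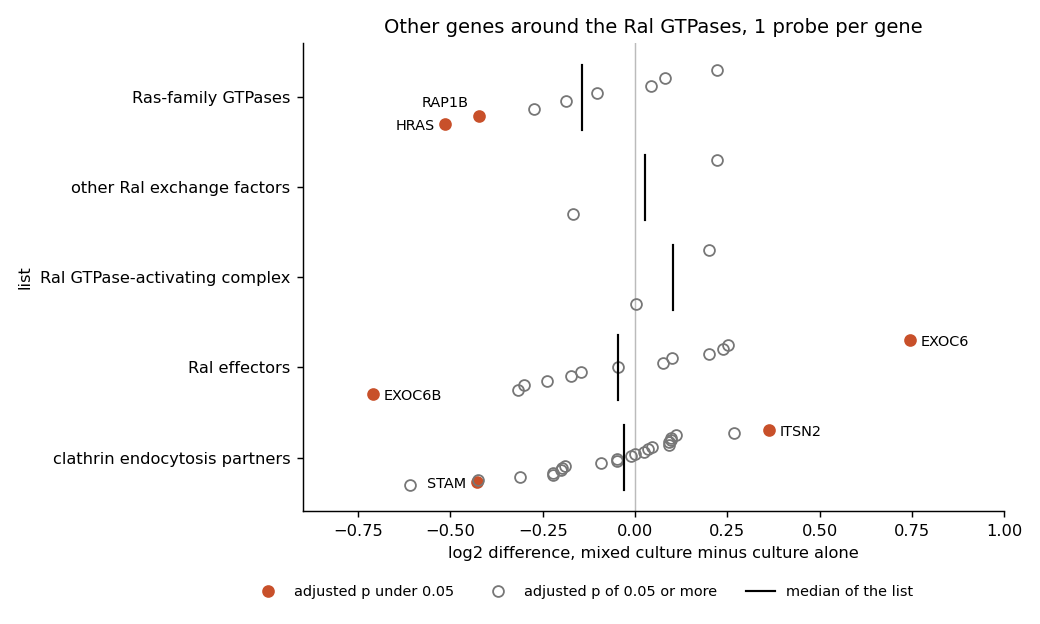
Difference of the mean log2 signal, mixed culture minus culture alone (horizontal axis), for the 49 tested genes of 5 lists, 1 probe per gene, with the median of each list as a vertical line. Filled points are the 6 genes with an adjusted p under 0.05, EXOC6 and ITSN2 above 0 and EXOC6B, HRAS, STAM and RAP1B below 0.

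As a readout of Ras signalling further along another branch, the list of Ras-MAPK output genes had 9 of 12 genes tested and 2 called, where 11.7% of all genes with a symbol were called, with EGR1 called higher (0.77, limma adjusted p = 0.016) and FOSL1 called lower (-0.52, limma adjusted p = 0.019). Its median difference was -0.19. The feedback regulators SPRED1 at 0.39 and DUSP6 at -0.19 were not called at their brightest probe. Their other tested probes, at 0.28 for SPRED1 and -0.34, -0.26 and -0.31 for DUSP6, were not called either. Of the 9 genes, 4 had an unadjusted p under 0.05 in limma, 2 of them higher.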

How the data were processed

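RasV12 cells cultured alone and in mixed culture were measured on 1-colour Agilent canine arrays, 3 against 3, grouped by the labels. The authors deposited scanner output with an intensity per spot (Agilent Feature Extraction 10.10.1.1 per the file headers; processed signal corrected for background) and a table of log2 values. The deposited log2 values were found to be the log2 of the processed signal with 1 constant per array, close to its 75th percentile, subtracted by the authors, and served as an alternative.

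Control spots and the 6 to 12 outlier spots of each array were dropped, spots of a probe averaged, and log2 values taken minus the 75th percentile. A probe was tested where every array of either group called it well above background (26535 of 43603), with limma 3.58.1 in R 4.3.3 (lmFit and eBayes, two-sided, Benjamini-Hochberg, threshold 0.05). Python 3.11.15, pandas 2.3.3, Biopython 1.88 and matplotlib 3.10.9 served for the rest. No depth applies to arrays, and their number limits the precision. Names came from the array annotation for 22682 probes and from sequences of the supplementary list for 66, and 20855 kept an accession. Alternatives were quantile normalization, normexp (offset 50), testing every probe, testing only probes above background on 6 arrays, the deposited table, scaling to 8 spike-in controls, a replicate block, the methods' t-test, leaving out each array and, for lists, the mean over probes.

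Named genes are all member probes, called genes of the 5 lists at their brightest probe, and the 5 genes with a symbol most like REPS2. Further genes of the lists, REPS2 neighbours and second probes were named after their values were seen. The values of 2 list genes are not reported here. The members and lists were chosen with earlier results of these data known. Arrays with the same replicate number correlated at 0.349, 0.162 and 0.296 over 26529 probes after removal of group means, others at -0.329 to 0.238. All same-number values were over 0.1, but so was alone replicate 2 with mixed replicate 3, at 0.238, above the same-number value of 0.162. The correlations thus do not settle the pairing. The numbers were taken to pair the samples only in the replicate block, and the main fit with its SEs, intervals and calls is unpaired. The number is also the array's position on its slide. In tests on simulated data with 26529 probes, 94% of 2-fold and 99% of 4-fold changes were recovered with 6 false calls, and 0 calls were made without a change. The simulated noise was independent between arrays and between probes and held no slide effect. These rates check the code and do not give the rate of false calls on the real arrays.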

Additional observations from a re-analysis of the deposited data

How the results depend on the processing

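The direction of REPS2 and of every RALA difference held under all alternatives run. REPS2 ranged from 2.43 to 4.18, and from 2.92 to 4.18 when 1 array was left out. The counts of calls were far less stable. The 2978 probes called became 12 without the filter on dim probes, 1039 with spike-in scaling and 826 by the methods' t-test after adjustment, and ran from 7 to 7335 when 1 array was left out (7335, 24 and 7 on leaving out replicates 1, 2 and 3 of culture alone, and 2009, 9 and 12 for those of mixed culture). The cause was not tested. Of the member probes, counted as a description only, 0 were called without the filter, 1 with spike-in scaling and 1 by the t-test (RALA probe 1), and between 0 and 2 when 1 array was left out, 0 without alone replicate 2, alone replicate 3, mixed replicate 2 or mixed replicate 3. At an unadjusted p under 0.05, by limma or by the methods' t-test, between 2 and 6 member probes and between 12 and 21 wider genes passed in each fit. The share of all tested probes or genes at that p was not taken. Nothing is therefore read from these counts or from the other counts at an unadjusted p. The 6 wider genes called became 0 without the filter, 3 with spike-in scaling and 3 by the t-test, and between 0 and 12 when 1 array was left out, 12 without alone replicate 1, 3 without mixed replicate 1 and 0 when any 1 of the other four was left out. EXOC6 lost its call in 5 of 14 alternatives (adjusted p 0.004 to 0.075), EXOC6B, RAP1B and ITSN2 in 7, HRAS in 9 and STAM in 10. With the replicate block 2825 probes, 2 member probes and 5 wider genes were called, HRAS (adjusted p 0.055) and STAM (0.078) no longer among them, and REPS2 remained at 3.35 with an SE of 0.34. Slide was not fitted as a block because it coincides with culture. Signals near background, as for RALGDS and RGL1, limit what the arrays can show.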
